A study of Mus musculus with 32 samples.

Results

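The p53 target genes considered here were 10 genes that the tumour suppressor p53 is known to switch on after DNA damage: Cdkn1a, Mdm2, Ccng1, Bax, Bbc3, Pmaip1, Sesn2, Trp53inp1, Phlda3 and Perp. They were picked by name as known targets. In the mouse distal colon, 9 of the 10 were measured, among 18193 named genes, and the RNA of Bax was not analysed here. RNA was measured on Affymetrix expression arrays, a single array per mouse, on 32 arrays in all. The study asked how Myd88, an adaptor that relays signals of Toll-like receptors and of the receptors for IL-1 and IL-18, acts on a regimen that leads to colitis-associated colon tumours.

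The mice were Myd88 knockout (KO) mice, which had been backcrossed until at least 98% congenic, and wild-type (WT) mice of that same background, labelled C57 BL6NCr. The 10 treated KO and the 10 treated WT mice received azoxymethane (AOM), a carcinogen that alkylates DNA, once by intraperitoneal injection at 10 mg/kg and at 6 to 8 weeks of age. Then, 1 week later, they were given dextran sodium sulfate (DSS), a polymer that damages the colonic epithelium, at 2% in the drinking water for 3 days and were killed. The 6 untreated KO and the 6 untreated WT mice received neither agent, and their labels give no age. AOM and DSS were always given together, so their effects on a gene cannot be told apart. The level of the targets was read at this one point after the injection.

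p53 is held at a low level by Mdm2, which marks it for destruction, and kinases that sense damaged DNA release it from that control. Released p53 binds response elements near its targets and raises genes that halt the cell cycle, genes that open mitochondria for cell death, and genes that feed back on p53 itself. In the rodent colon a single dose of AOM is known to set off a wave of cell death in the crypts within hours.

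Elements of this kind are shown for those members searched that carry one close to a start of transcription. Windows of 7 members in a RefSeq table of mouse promoters (build GRCm38.p6, 250 bases before to 50 after each start) were searched. Bax was among these 7. Of these 7, 2 held a p53 response element with at most 1 mismatch. The other members were not searched. The element searched for was a pair of adjoining p53 half-sites of 10 bases each with no spacer, which reads the same on both strands. It was found in the windows of 0.107% of 27025 genes. The sequences run 5′ to 3′ along the strand of the gene, with the 20 bases of the element in capitals. The Ccng1 stretch is chr11:40755422-40755521 on the minus strand, where the first base of the element is at -195 from the start. The Cdkn1a stretch is chr17:29090888-29090987 on the plus strand, at -51 from the more upstream of its 2 annotated starts.
Ccng1: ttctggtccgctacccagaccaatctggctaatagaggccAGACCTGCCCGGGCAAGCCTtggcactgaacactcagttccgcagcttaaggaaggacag
Cdkn1a: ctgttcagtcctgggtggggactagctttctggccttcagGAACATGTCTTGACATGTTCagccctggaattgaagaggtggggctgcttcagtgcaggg
These matches describe the letters only; binding of p53 was not measured.

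Signals are given as log2 units after quantile normalization, and a difference is a log2 difference ± its standard error, treated minus untreated or KO minus WT. A gene was called when the adjusted p of limma's moderated test, by the Benjamini-Hochberg method over all 18193 genes, was under 0.05. The median difference over all genes was 0.00 in each of the 4 comparisons between groups. Myd88 averaged 8.00 ± 0.31 in treated KO and 8.46 ± 0.12 in treated WT mice (SD, n = 10 each), and 7.67 ± 0.11 in untreated KO and 8.40 ± 0.11 in untreated WT mice (SD, n = 6 each). KO minus WT was -0.46 ± 0.09 with treatment (limma adjusted p = 0.00104) and -0.73 ± 0.11 without it (limma adjusted p = 0.000925). The untreated groups did not overlap, but the treated ones did: 3 of the 10 arrays labelled treated KO, numbers 3, 5 and 7, lay at 8.31, 8.27 and 8.29, inside the treated WT range of 8.26 to 8.61, while untreated KO arrays ended at 7.81. Myd88 alone thus does not set these 3 arrays apart from WT. Calls among the genes named that were lost without them are given beside the gene. Treated KO array 10, at 8.2597, lay just under the lowest treated WT array, at 8.2649, and was kept when those 3 were left out. The mean of 8 colon epithelium markers lay between 11.10 and 12.08 on all arrays. The mean of 10 squamous epithelium markers, genes of skin and anal lining, reached 11.71 on treated WT array 1 and 10.14 on treated WT array 2, against at most 8.66 on the other arrays. Where a result moved without those arrays, this is stated beside it. The 4 comparisons between groups share samples, so their results are not independent of each other.

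After AOM and DSS the p53 targets were not raised as a group in either genotype. In WT mice 0 of the 9 measured targets were called (limma), where 1.84% of all genes were. At an unadjusted p under 0.05 there were 3 of 9, with Phlda3 and Ccng1 higher and Cdkn1a lower in treated WT mice. At that cutoff (limma) stood 2709 of all 18193 genes in the WT response and 5671 in the KO response. Between treated KO and treated WT mice there were 4728, between untreated groups 1305, and for the difference of responses 2130. Every unadjusted count of genes in this text is to be read beside these. In KO mice 1 of 9 was called, Trp53inp1, which fell, where 18.7% of all genes were called, 8.70% higher and 10.0% lower. Between the genotypes 1 of 9 was called among treated mice, Ccng1, which was slightly lower in KO (12.8% of all genes were called), and 0 of 9 among untreated mice, of which 0 had an unadjusted p under 0.05 (0.115% of all genes were called by limma). Of all genes called, 46.4% were higher in the KO response and 48.7% between treated KO and treated WT mice, shares that became 65.8% and 74.6% with median centring. The median difference of the 9 targets was 0.05 in WT and -0.02 in KO mice for the response to treatment, -0.05 between treated KO and treated WT, and 0.02 between untreated KO and untreated WT mice.

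**Figure D1:**
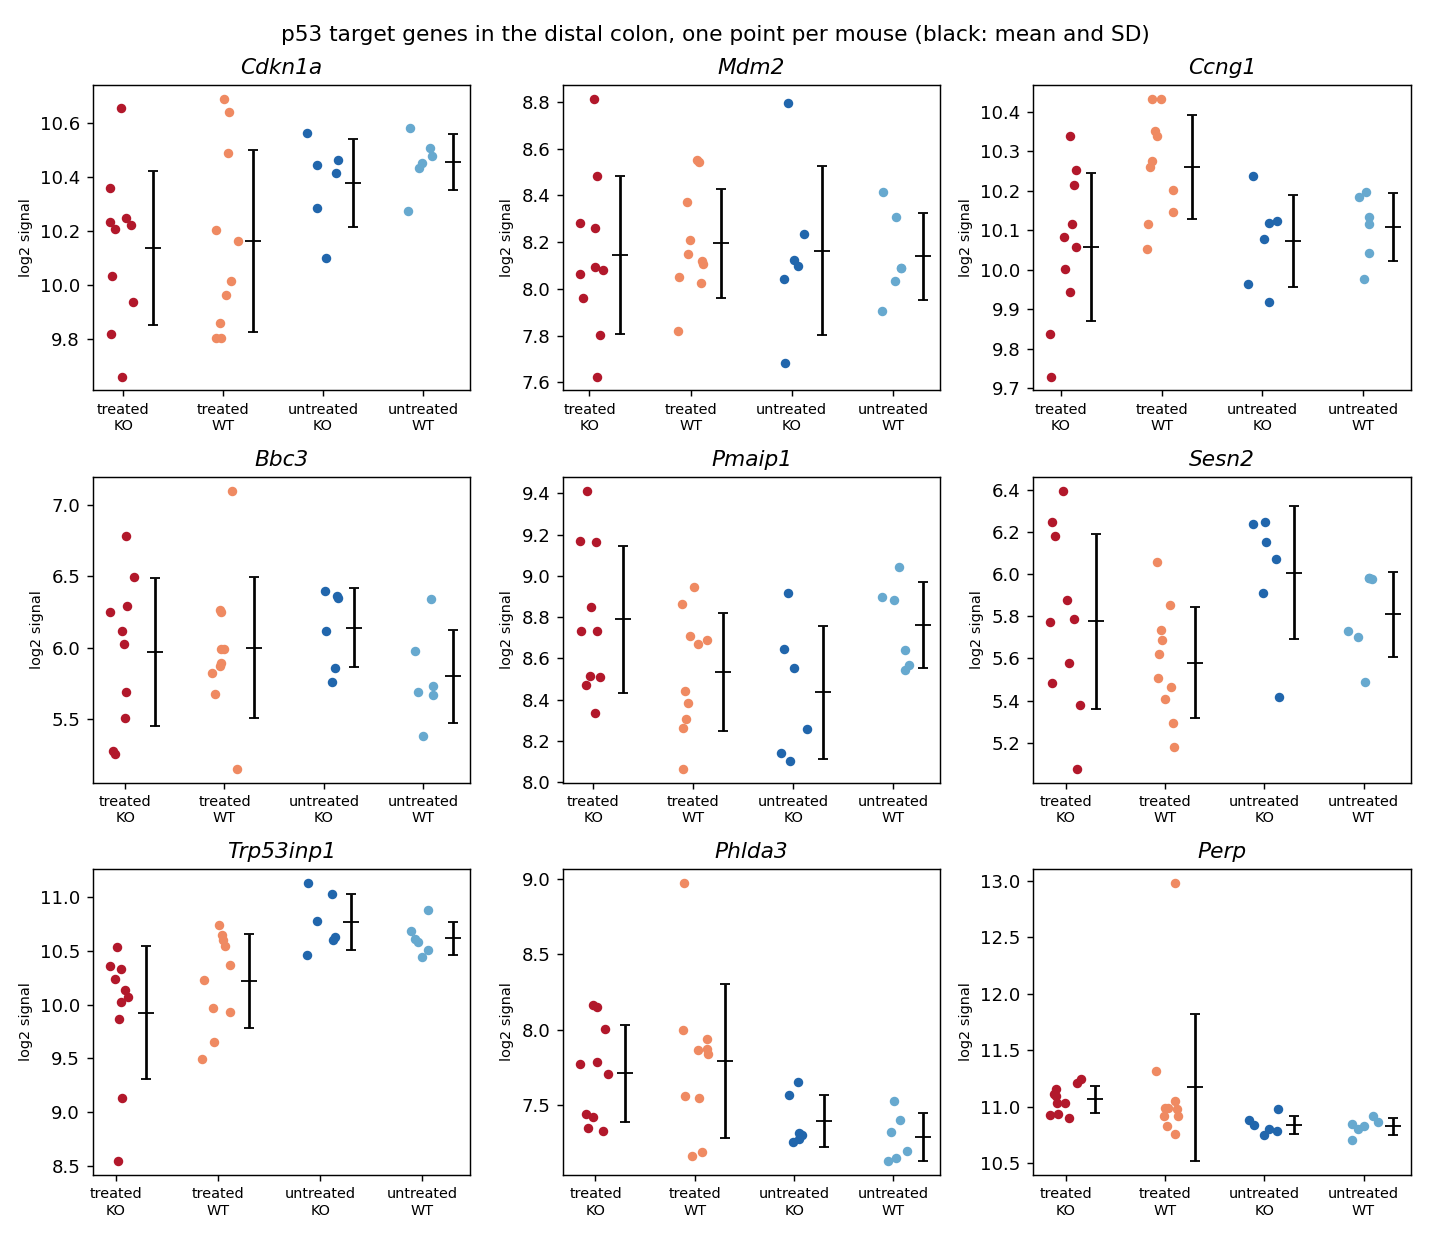
Log2 signal (vertical axis) of each of the 9 measured p53 targets on every array, in treated KO, treated WT, untreated KO and untreated WT mice, with a coloured point per mouse and the group mean ± SD in black. The groups overlap for each gene, and a single treated WT array stands at 12.98 for Perp and at 8.97 for Phlda3.

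Among the genes that halt the cell cycle, Cdkn1a encodes p21, an inhibitor of cyclin-dependent kinases and the most widely used readout of p53. Its level lay between 9.66 and 10.65 in treated KO mice (median 10.21) and between 9.80 and 10.69 in treated WT mice (median 10.09). In untreated KO mice it lay between 10.10 and 10.56 (median 10.43) and in untreated WT mice between 10.27 and 10.58 (median 10.46). The treated groups thus reached lower than the untreated ones, with overlap in both genotypes, and no treated group had a higher median. The response was -0.24 ± 0.13 in KO mice (adjusted p = 0.227, limma) and -0.29 ± 0.13 in WT mice (adjusted p = 0.299, limma). The 95% intervals reached from -0.52 to 0.03 in KO and from -0.57 to -0.02 in WT mice. A second, dimmer Cdkn1a probe set gave larger differences in the same direction. When every probe set was tested on its own, that one was called in KO mice at -0.58 ± 0.16 (adjusted p = 0.0129, limma) and not in WT mice at -0.56 ± 0.16 (adjusted p = 0.0899, limma). With the probe sets averaged, Cdkn1a was called in KO mice, at -0.41 ± 0.13 (adjusted p = 0.0249, limma).

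Ccng1 encodes cyclin G1, which binds a phosphatase subunit and takes part in the feedback of p53 on Mdm2. Its level lay between 9.73 and 10.34 in treated KO (median 10.07) and between 10.05 and 10.43 in treated WT mice (median 10.27). Untreated KO mice had 9.92 to 10.24 (median 10.10) and untreated WT mice 9.98 to 10.20 (median 10.12). The ranges of the treated groups overlap, and the treated KO range reaches lower. Treated KO minus treated WT was -0.20 ± 0.06, a 1.15-fold difference (adjusted p = 0.0341, limma). This call was lost when any of 8 arrays was left out, treated KO 2, 4, 5 or 10 or treated WT 2, 4, 8 or 9 (adjusted p up to 0.0751, limma). It was also lost without treated KO arrays 3, 5 and 7 (-0.22, adjusted p = 0.0657, limma), with median centring (-0.07), with the values as deposited (-0.15) and with the 3 Ccng1 probe sets averaged (-0.03), and the other probe sets gave 0.07 and 0.04. The response to treatment was -0.02 ± 0.07 in KO mice and 0.15 ± 0.07 in WT mice, neither called, and in KO mice it turned to 0.12 with median centring. A further Ccng1 probe set, tested on its own, was called as higher in treated than in untreated KO mice, at 0.25 ± 0.08 (adjusted p = 0.0204, limma), where it gave 0.24 ± 0.08 in WT mice (adjusted p = 0.13, limma). The probe sets of Ccng1 thus disagree in sign in the KO response and between treated KO and treated WT mice. In the WT response all 3 were higher (0.15, 0.10 and 0.24), and none was called.

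Mdm2 encodes the ligase that removes p53 and is itself raised by p53. Over all 32 arrays its level stayed between 7.62 and 8.81, with group medians from 8.09 to 8.13. Its response was -0.02 ± 0.15 in KO and 0.05 ± 0.15 in WT mice, and the KO minus WT difference was -0.05 ± 0.13 with treatment and 0.02 ± 0.16 without it. The sign of these differences turned under several settings. The intervals of the response, -0.32 to 0.29 in KO and -0.25 to 0.36 in WT mice, hold no change beyond 2-fold.

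Among the genes of cell death, Bbc3 (Puma) and Pmaip1 (Noxa) encode BH3-only proteins that neutralise the guardians of the mitochondrial membrane. Bbc3 was dim, between 5.15 and 7.10 over all arrays, and its groups overlapped widely. Its response was -0.17 ± 0.23 in KO and 0.20 ± 0.23 in WT mice, neither called. KO minus WT was -0.03 ± 0.20 with treatment and 0.34 ± 0.25 without it (adjusted p = 0.849, limma). Pmaip1 lay between 8.33 and 9.41 in treated KO (median 8.73) and between 8.07 and 8.95 in treated WT mice (median 8.56). Without treatment it lay between 8.10 and 8.92 in KO (median 8.40) and between 8.54 and 9.04 in WT mice (median 8.76). Treated KO arrays tended to lie above untreated KO arrays while treated WT arrays tended to lie below untreated WT arrays, with overlap in both. The response was 0.35 ± 0.16 in KO mice (unadjusted p = 0.0306, adjusted p = 0.114, limma) and -0.23 ± 0.16 in WT mice (adjusted p = 0.534, limma). The difference between these responses, 0.58 ± 0.22, was the largest among the 9 targets in size and was not called (unadjusted p = 0.0129, adjusted p = 0.28, limma), with an interval from 0.13 to 1.03. With median centring the KO response of Pmaip1 was called, at 0.45 ± 0.16 (adjusted p = 0.0487, limma).

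Perp encodes a membrane protein that takes part in p53-linked cell death and is also a component of desmosomes in stratified epithelia. It lay between 10.90 and 11.25 in treated KO (median 11.06) and between 10.76 and 12.98 in treated WT mice (median 10.98). The untreated groups were narrow, at 10.75 to 10.98 in KO (median 10.82) and 10.70 to 10.92 in WT mice (median 10.84). The value of 12.98 was that of treated WT array 1, while the other treated WT arrays ended at 11.32. The response was 0.23 ± 0.19 in KO and 0.35 ± 0.19 in WT mice, neither called. Without treated WT array 1 the WT response was 0.15 ± 0.06 (adjusted p = 0.287, limma), and the KO response, unchanged at 0.23, had a standard error of 0.06 and was called (adjusted p = 0.0111, limma). The KO response was also called without treated WT arrays 1 and 2 (adjusted p = 0.00311) and when the treated and untreated KO arrays were fitted by themselves (adjusted p = 0.0239), all by limma. Treated WT array 1 had the highest squamous epithelium mean of all arrays, 11.71, and with that mean as a covariate the WT response was 0.09 ± 0.18.

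**Figure D2:**
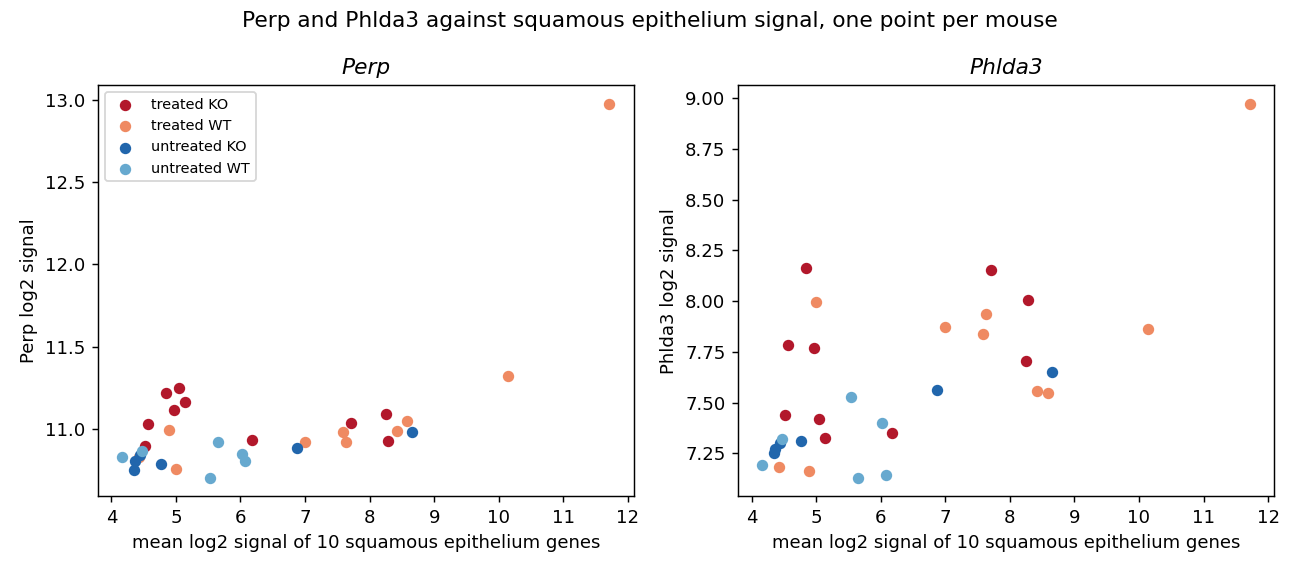
Log2 signal of Perp and of Phlda3 (vertical axes) against the mean log2 signal of 10 squamous epithelium genes (horizontal axis) on each of the 32 arrays, by group. Treated WT array 1, at a squamous mean of 11.71, is the highest array for both genes.

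Among the genes of stress defence, Phlda3 encodes a pleckstrin-homology protein that restrains Akt. It lay between 7.33 and 8.16 in treated KO (median 7.74) and between 7.16 and 8.97 in treated WT mice (median 7.85). Untreated KO mice had 7.25 to 7.65 (median 7.31) and untreated WT mice 7.13 to 7.53 (median 7.26). The treated medians lay above the untreated ranges in both genotypes, but the lowest treated arrays lay within them. The response was 0.32 ± 0.18 in KO mice (adjusted p = 0.237, limma) and 0.51 ± 0.18 in WT mice (unadjusted p = 0.00908, adjusted p = 0.16, limma). Without treated WT array 1, where Phlda3 was at 8.97, the WT response was 0.38 ± 0.14 (adjusted p = 0.199, limma), and with the squamous mean as a covariate it was 0.24 ± 0.16. With array weights, which lower the say of arrays that fit poorly, it was 0.42 ± 0.13 and was called (adjusted p = 0.0498, limma). The part of squamous epithelium in the Phlda3 and Perp values was not tested.

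Trp53inp1 encodes a stress protein that lives in nuclear bodies, aids p53 in cell death and takes part in autophagy. It lay between 8.54 and 10.54 in treated KO (median 10.10) and between 9.49 and 10.74 in treated WT mice (median 10.30). Without treatment it lay between 10.46 and 11.13 in KO (median 10.70) and between 10.45 and 10.89 in WT mice (median 10.60). Of the 10 treated KO arrays, 2 and 4 were the lowest, at 9.13 and 8.54, and only the highest treated KO array, at 10.54, reached into the untreated KO range. Trp53inp1 fell in KO mice by 0.85 ± 0.23 on the log2 scale, a 1.80-fold difference (adjusted p = 0.00881, limma). The response was -0.40 ± 0.23 in WT mice (adjusted p = 0.424, limma), and the difference between the responses, -0.45 ± 0.32, was not called (adjusted p = 0.63, limma). So a fall particular to KO mice was not shown. The second Trp53inp1 probe set fell as well in KO mice, by 0.64 ± 0.18 (adjusted p = 0.0149, limma). The KO call held in all settings run, at -1.01 without treated KO arrays 3, 5 and 7 (adjusted p = 0.00659, limma), and without a single array the value ranged from -0.92 to -0.69 (adjusted p up to 0.0269, limma). In whole colon, fewer cells that make a transcript and less of it per cell cannot be told apart. In the same comparison 5 of 8 colon epithelium markers were called higher in treated than in untreated KO mice, where 8.70% of all genes were. The differences of 2 of the 8 lay below 0, the lowest at -0.35, and neither was called. The mean of the 8 lay between 11.58 and 12.08 in treated KO and between 11.45 and 11.74 in untreated KO mice. The part of these markers in the fall of Trp53inp1 was not tested.

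Sesn2 encodes sestrin 2, an antioxidant protein that restrains growth signalling through mTORC1. It was dim, between 5.08 and 6.39 over all arrays. Its response was -0.23 ± 0.16 both in KO and in WT mice, neither called, and KO minus WT was 0.20 ± 0.14 with treatment and 0.20 ± 0.18 without it. No target lay at the floor of the deposited scale on the probe set used.

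**Figure D3:**
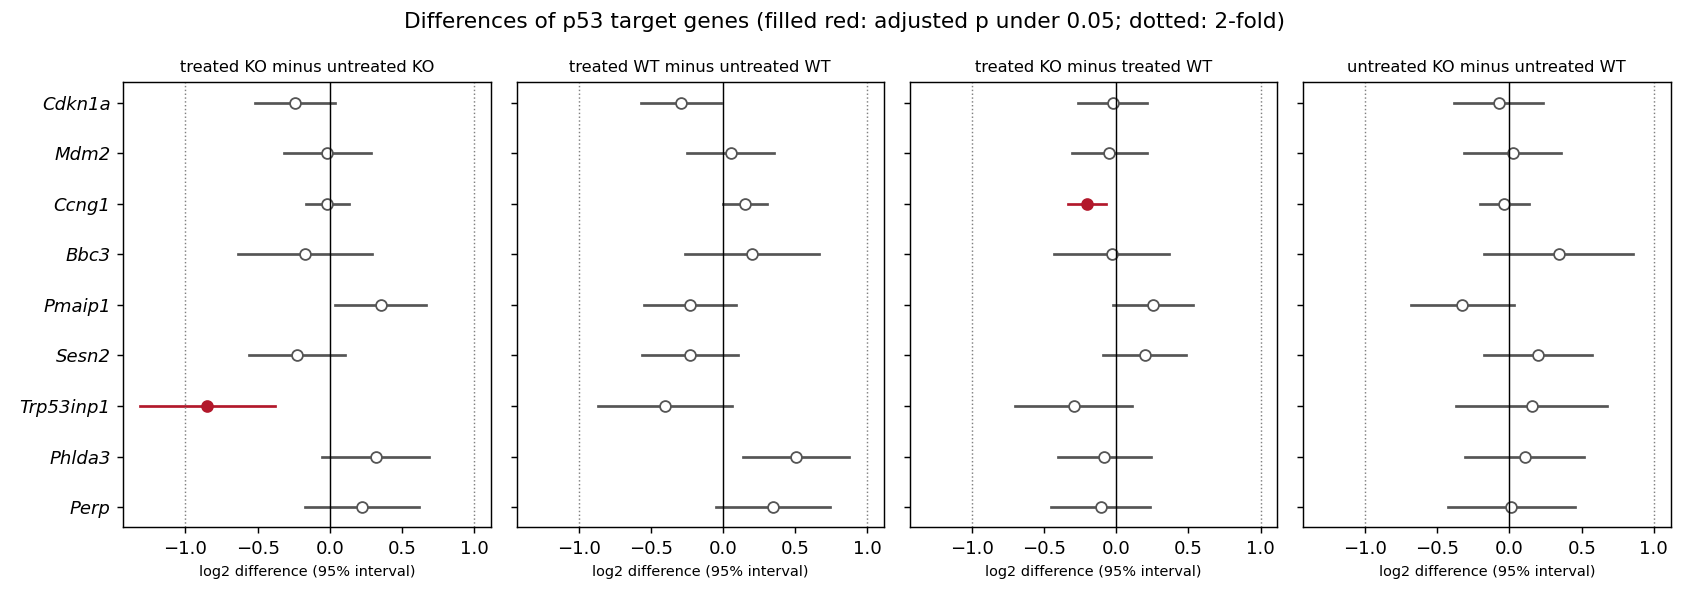
Log2 difference with its 95% interval (horizontal axis) for each of the 9 targets in the KO response, the WT response, treated KO minus treated WT and untreated KO minus untreated WT. Dotted lines mark a 2-fold change. Trp53inp1 in the KO response and Ccng1 between treated KO and treated WT mice are the 2 values called.

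The intervals give the precision of each difference on the probe set used, gene by gene and without adjustment for the number of genes. Other probe sets could be less precise, such as the second one of Sesn2 at -0.42 ± 0.30 in the WT response. In the WT response the 95% intervals of all 9 targets lay inside a 2-fold change in either direction, from -0.87 (Trp53inp1) to 0.88 (Phlda3). In the KO response the upper ends all lay under a 2-fold rise, the highest at 0.69 (Phlda3). For KO minus WT the 9 intervals stayed inside 2-fold in treated mice, from -0.70 to 0.53, and in untreated mice, from -0.68 to 0.86. The test of the difference between responses was less precise, with 6 of 9 intervals inside 2-fold and 0 of 9 called (limma), where 0.0550% of all genes were. At an unadjusted p under 0.05 it held 1 of 9, Pmaip1, where it held 2130 of all 18193 genes (limma). Of the targets whose values in these comparisons were not given above, treated KO minus treated WT was -0.03 ± 0.12 for Cdkn1a, 0.26 ± 0.13 for Pmaip1, -0.29 ± 0.20 for Trp53inp1, -0.08 ± 0.16 for Phlda3 and -0.11 ± 0.17 for Perp. Untreated KO minus untreated WT was -0.08 ± 0.15 for Cdkn1a, -0.04 ± 0.08 for Ccng1, -0.33 ± 0.17 for Pmaip1, 0.15 ± 0.25 for Trp53inp1, 0.11 ± 0.20 for Phlda3 and 0.01 ± 0.22 for Perp. The difference of responses was 0.05 ± 0.19 for Cdkn1a, -0.07 ± 0.21 for Mdm2, -0.17 ± 0.10 for Ccng1, -0.37 ± 0.32 for Bbc3, -0.0007 ± 0.23 for Sesn2, -0.19 ± 0.26 for Phlda3 and -0.12 ± 0.27 for Perp. None of these was called (limma), and their signs near 0 turned under several settings.

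The wider p53 network was read through lists of further targets, of regulators and of genes that lie downstream. Of 31 further p53 targets measured, 0 rose and 2 fell in the WT response, where 1.84% of all genes were called, with a median of 0.07. Without treated KO arrays 3, 5 and 7, which enter only the estimate of the spread, 4 were called. Gadd45a, which binds PCNA and slows division after stress, was 7.42 to 8.05 in treated WT (median 7.72) and 8.01 to 8.53 in untreated WT mice (median 8.24). It fell by 0.55 ± 0.13 (adjusted p = 0.0272, limma), and the call was lost without treated WT array 5 or 6 or untreated WT array 1, 4, 5 or 6 (adjusted p up to 0.0816, limma), with median centring, and with either covariate. Psrc1, a microtubule protein of dividing cells, fell by 0.995 ± 0.27 (adjusted p = 0.0471, limma), a call lost when any of 22 arrays was left out (adjusted p up to 0.12, limma). The brightest target not called was Rps27l, at 0.04 ± 0.09.

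In the KO response 3 of the 31 further targets rose and 4 fell, with a median of 0.08. This is near the background, since 8.70% of all genes rose and 10.0% fell. Sfn, which encodes the 14-3-3 sigma protein that holds cells before mitosis, lay between 7.83 and 9.78 in treated KO and between 6.53 and 7.30 in untreated KO mice, without overlap, as did 1.09% of all genes on the higher side. It rose by 1.70 ± 0.35, a 3.25-fold difference (adjusted p = 0.00111, limma). In WT mice Sfn lay between 7.63 and 11.27 with treatment and between 7.19 and 7.37 without it, also without overlap, as did 0.528% of all genes on the higher side, and the difference of 1.20 ± 0.35 was not called (adjusted p = 0.0743, limma). Sfn is known from stratified epithelia too, and its highest value, 11.27, was that of treated WT array 1. Zmat3, an RNA-binding target, rose by 0.33 ± 0.08 in KO mice (adjusted p = 0.00342, limma), against 0.26 ± 0.08 in WT mice, which was not called (adjusted p = 0.0744, limma). Tgfa, a ligand of the EGF receptor, rose by 0.43 ± 0.11 in KO mice.

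Among the 4 further targets that fell in KO mice, Psrc1 fell by 1.501 ± 0.267 (adjusted p = 0.000282, limma) and Ckap2 fell by 1.30 ± 0.20 (adjusted p = 7.52e-05, limma). Ddb2 fell by 0.94 ± 0.18 (adjusted p = 0.000643, limma) and Ephx1 fell by 0.50 ± 0.12 (adjusted p = 0.00359, limma). Psrc1 and Ckap2 are spindle proteins of dividing cells, Ddb2 recognises ultraviolet lesions in DNA repair, and Ephx1 is a hydrolase of epoxides. Rps27l was again the brightest target not called, at 0.14 ± 0.09. Ddb2 was between 5.42 and 6.62 in treated KO mice and between 6.15 and 7.14 in treated WT mice. Among treated mice Ddb2 was also lower in KO, at -0.55 ± 0.16, a call lost without treated KO arrays 3, 5 and 7 (adjusted p = 0.065, limma), together with Sesn1 (-0.69 ± 0.19), Pml (-0.48 ± 0.13) and Ephx1 (-0.44 ± 0.10). Without treatment Sesn1 averaged 7.76 in KO and 8.25 in WT mice, and Pml 6.10 and 6.36. Ddb2 averaged 6.97 and 6.98 there, and Ephx1 8.33 and 8.26. Sesn1 and Pml were thus lower in KO without treatment too, though not called. The Sesn1 call was lost without treated WT arrays 1 and 2 (adjusted p = 0.0538, limma) and with the squamous covariate (adjusted p = 0.0779, limma), and the Pml call with probe sets averaged (-0.28, adjusted p = 0.0795, limma). Tgfa (0.43 ± 0.10) and Rps27l (0.23 ± 0.07) were higher, which made 2 higher and 4 lower of 31, where 12.8% of all genes were called, with a median of -0.0035, and Ddit4 was the brightest not called, at -0.08 ± 0.17. Between untreated groups, and for the difference of responses, 0 of 31 were called (limma), with 1 and 3 at an unadjusted p under 0.05.

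**Figure D4:**
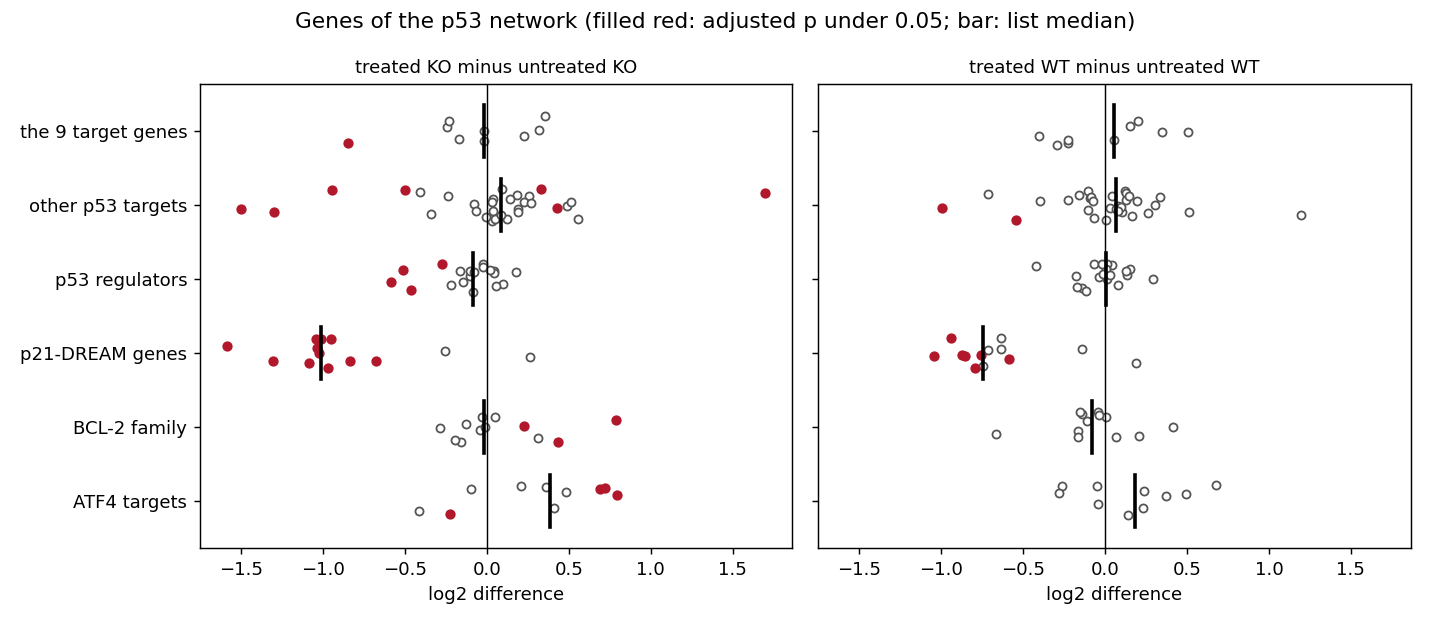
Log2 differences (horizontal axis) of the genes of each p53 network list in the response of KO and of WT mice, with a point per gene, filled where called, and a bar at the list median. The list of genes that p21 is known to repress has the lowest medians, -1.01 in the KO and -0.75 in the WT response.

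Among the regulators of p53, some kinases and partners were lower in treated KO mice. Of 19 measured, 0 rose and 4 fell in the KO response (median -0.09), where 18.7% of all genes were called and 10.0% fell. Between treated KO and treated WT mice 0 were higher and 4 lower (median -0.09), where 12.8% of all genes were called in either direction. Of the genes called there, 48.7% were higher. Whether the counts of regulators differ from the shares over all genes was not tested. In the WT response 0 were called (limma, 3 at an unadjusted p under 0.05, median 0.01). Atm, the kinase that answers double-strand breaks, lay between 6.31 and 7.24 in treated KO (median 6.76) and between 7.04 and 7.54 in treated WT mice (median 7.33). Untreated KO mice had 7.08 to 7.41 (median 7.21) and untreated WT mice 6.98 to 7.45 (median 7.32), so the treated KO group alone was low. Atm fell by 0.47 ± 0.11 in the KO response (adjusted p = 0.00254, limma) and differed by -0.54 ± 0.09 between treated KO and treated WT mice (adjusted p = 0.000388, limma). Its response in WT mice was 0.04 ± 0.11, and the difference between the responses, -0.51 ± 0.15, was not called (unadjusted p = 0.00219, adjusted p = 0.176, limma).

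Trp53bp1, which binds broken DNA ends beside p53, fell by 0.59 ± 0.13 in the KO response (adjusted p = 0.00184, limma) and differed by -0.53 ± 0.11 between treated KO and treated WT mice. Chek2, the kinase downstream of Atm, fell by 0.51 ± 0.13 in the KO response. Atr, the kinase of stalled replication forks, differed by -0.32 ± 0.08 between treated KO and treated WT mice. It averaged 6.50 in treated KO and 6.82 in treated WT mice, and 6.60 in untreated KO and 6.81 in untreated WT mice. Atr was thus lower in KO without treatment too, and neither that difference nor its KO response was called. These calls of Atm, Trp53bp1 and Chek2 held in all 44 settings run, and that of Atr in all but 1, the fit without treated KO arrays 3, 5 and 7 (adjusted p = 0.0648, limma). Mdm4, the partner of Mdm2, was called in both comparisons (-0.27 ± 0.09 and -0.33 ± 0.08), but with its probe sets averaged it turned to 0.12 and 0.06, and the first call was lost without any of 13 arrays (adjusted p up to 0.0715, limma) and without treated KO arrays 3, 5 and 7 (adjusted p = 0.124, limma). The brightest regulator not called was Cop1, a ligase of p53, at -0.10 ± 0.07 in KO mice, -0.04 ± 0.07 in WT mice and -0.14 ± 0.06 between treated KO and treated WT. Between untreated groups and for the difference of responses 0 of 19 were called (limma, 1 and 4 at an unadjusted p under 0.05), with Cop1 at -0.07 ± 0.08 and -0.07 ± 0.11. Trp53 itself was not analysed here.

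Genes that p21 is known to repress through the DREAM complex, most of them genes of mitosis, were lower after treatment in both genotypes, although Cdkn1a was not higher. Why they were lower was not tested. Of 13 measured, 11 fell in the KO response (median -1.01), where 10.0% of all genes fell, and 7 in the WT response (median -0.75), where 1.84% of all genes were called, and 0 rose. In KO mice Ccnb2 fell by 1.59 ± 0.20 (adjusted p = 5.28e-06, limma), Bub1b by 1.31 ± 0.28, Cdc20 by 1.08 ± 0.22 and Birc5 by 1.04 ± 0.21, while Foxm1 was the brightest not called, at -0.26 ± 0.13. In WT mice Cdk1 fell by 1.05 ± 0.24, Birc5 by 0.94 ± 0.21, Ccnb2 by 0.88 ± 0.20 and Cdc20 by 0.86 ± 0.22, with Ccna2 the brightest not called, at -0.72 ± 0.20 (adjusted p = 0.0658, limma). Without a single array the number called in WT mice ranged from 2 to 8. The WT calls of Cdk1, Birc5, Ccnb2 and Cdc20 were lost with the RNA integrity covariate, that of Cdk1 also without untreated WT array 2, 5 or 6, and that of Cdc20 without any of 9 arrays (adjusted p up to 0.0916, limma). Of the same genes 2 were lower in treated KO than in treated WT mice, where 12.8% of all genes were called, Ccnb2 at -0.77 ± 0.17 (adjusted p = 0.0035, limma) and Cdc20 at -0.56 ± 0.19, where the Cdc20 call was lost without any of 27 arrays (adjusted p up to 0.103, limma), and Cks2 was at -0.0090. Between untreated groups and for the difference of responses 0 of 13 were called (limma, 1 each at an unadjusted p under 0.05).

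Of 12 genes of the BCL-2 family beyond the targets, 3 rose in the KO response (median -0.02), where 18.7% of all genes were called and 8.70% rose. In treated KO against treated WT mice 3 were higher (median 0.14), where 12.8% of all genes were called. In either comparison 0 fell, and 0 were called in the WT response (limma, 2 at an unadjusted p under 0.05, median -0.08). Bak1, a pore former of the mitochondrial membrane, rose by 0.79 ± 0.18 in KO mice (adjusted p = 0.00251, limma). It differed by 0.52 ± 0.16 between treated KO and treated WT mice (adjusted p = 0.0261, limma), a call lost without treated KO array 2 or 4, treated WT array 4, or treated WT arrays 1 and 2 (adjusted p up to 0.0791, limma). Bcl2l1, which encodes the survival protein BCL-XL, differed by 0.46 ± 0.09 between treated KO and treated WT mice (adjusted p = 0.000944, limma). It rose by 0.44 ± 0.10 in the KO response, or by 0.22 with its probe sets averaged, where it was not called. Mcl1 (0.23 ± 0.08 in the KO response) and Bok (0.34 ± 0.11 between treated KO and treated WT) were called as well, each call being lost without any of 15 and 11 arrays, and Mcl1 turned to -0.15 with its probe sets averaged. The Mcl1 call was also lost without treated KO arrays 3, 5 and 7 (adjusted p = 0.162, limma). Bok differed by as much without treatment, at 0.34 ± 0.15 between untreated KO and untreated WT mice, which was not called (adjusted p = 0.641, limma). The brightest not called were Bcl2l2 in the KO response, at -0.13 ± 0.08, and Mcl1 in the WT response, at -0.11 ± 0.08, and between treated KO and treated WT, at 0.10 ± 0.07. Between untreated groups and for the difference of responses 0 of 12 were called (limma, 2 and 4 at an unadjusted p under 0.05).

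Some of the targets also answer to other factors, among them ATF4, the factor of amino acid and endoplasmic reticulum stress, which can raise Sesn2. Of 10 ATF4 genes, 3 rose and 1 fell in the KO response (median 0.38), where 18.7% of all genes were called. In treated KO against treated WT mice 3 were higher (median 0.20), where 12.8% of all genes were called, and 0 were called in the WT response (limma, 1 at an unadjusted p under 0.05, median 0.19). Chac1 rose by 0.79 ± 0.22, Psat1 by 0.72 ± 0.22 and Atf5 by 0.69 ± 0.16 in KO mice, whereas Atf4 itself was at -0.23 ± 0.07, a call lost without untreated KO array 2, 4 or 5 (adjusted p up to 0.102, limma). The call of Psat1 was lost without untreated KO array 1 or 2 (adjusted p up to 0.0577, limma). Without treated KO arrays 3, 5 and 7 the calls of Psat1 (adjusted p = 0.0723, limma) and Atf4 (adjusted p = 0.083, limma) were lost. The brightest not called was Asns, at 0.41 ± 0.16. Between treated KO and treated WT mice Asns differed by 0.55 ± 0.14, Slc7a11 by 0.54 ± 0.17 and Atf5 by 0.47 ± 0.14, with Atf4 the brightest not called, at 0.08 ± 0.06. The call of Slc7a11 was lost without any of 7 arrays and without treated KO arrays 3, 5 and 7 together (adjusted p = 0.0637, limma), and that of Atf5 without treated KO array 2 (adjusted p = 0.0518, limma). Glucocorticoid receptor genes, read because stress hormones can raise some growth-arrest genes, held 1 riser (Fkbp5, 0.74 ± 0.14) and 3 fallers (Mt2, -1.27 ± 0.27, Sgk1, -0.99 ± 0.22, and Klf9, -0.38 ± 0.13) of 7 in the KO response, where 18.7% of all genes were called, with Tsc22d3 the brightest not called, at -0.10 ± 0.21. In the WT response Sgk1 fell by 1.40 ± 0.22 and Per1 by 0.77 ± 0.15, and 2 were higher in treated KO than in treated WT mice (Per1, 0.64 ± 0.13, and Fkbp5, 0.52 ± 0.12), where 1.84% and 12.8% of all genes were called. Klf9 was the brightest not called in both, at -0.30 ± 0.13 and -0.20 ± 0.11. The medians of the 7 were -0.10, -0.30 and 0.35 in these comparisons, and the call of Klf9 was lost without any of 7 arrays (adjusted p up to 0.0966, limma). Between untreated groups 0 of the 10 ATF4 and 0 of the 7 glucocorticoid genes were called (limma, 2 and 1 at an unadjusted p under 0.05), and likewise for the difference of responses (limma, 0 and 2 at an unadjusted p under 0.05).

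Markers of the cells a colon sample can hold moved as follows. Of 10 squamous genes, 1 was called in the WT response, Krt14, at 3.35 ± 0.90 (adjusted p = 0.0471, limma), where 1.84% of all genes were called. That call was lost without any of 18 arrays or without treated KO arrays 3, 5 and 7 together (adjusted p = 0.0584, limma). In sign, all 10 were higher in treated than in untreated WT mice (median 2.14). The squamous mean was between 4.52 and 8.29 in treated KO and between 4.43 and 11.71 in treated WT mice, and between 4.34 and 8.66 in untreated KO and 4.17 and 6.08 in untreated WT mice. Krt15, one of these genes, lay at the floor of the scale on 7 of 10 treated KO, 3 of 10 treated WT, 5 of 6 untreated KO and 6 of 6 untreated WT arrays. Of 8 colon epithelium genes, 5 were called higher in the KO response (such as Cdx2 by 0.75 ± 0.17 and Krt20 by 0.69 ± 0.19), where 8.70% of all genes were. The differences of 2 of the 8 lay below 0 there, the lowest at -0.35, and neither was called (limma, 1 at an unadjusted p under 0.05). Between treated KO and treated WT mice 4 were called higher (Krt20 at 0.75 ± 0.16, Cdx2 at 0.57 ± 0.15, Vil1 at 0.48 ± 0.10 and Epcam at 0.20 ± 0.05), where 12.8% of all genes were called. In the WT response 1 fell (Aqp8, by 0.78 ± 0.14), where 1.84% of all genes were called. The Krt20 and Vil1 calls of the KO response were lost without treated KO arrays 3, 5 and 7 (adjusted p = 0.0586 and 0.0523, limma). Of 6 macrophage genes, 1 was called in the KO response, Cd68, which rose by 1.18 ± 0.30, where 18.7% of all genes were called. The differences of 2 of the 6 lay below 0, the lowest at -0.18. Of the 9 skeletal muscle, 6 smooth muscle and 4 lymphocyte genes measured, 0 were called in either response or between treated groups (limma, up to 2 at an unadjusted p under 0.05 in each list). The skeletal muscle mean varied widely, from 4.83 to 10.17 in treated KO and 4.76 to 10.46 in treated WT mice. Without treatment it ran from 4.62 to 8.51 in KO and 4.54 to 9.82 in WT mice. In sign, all 9 were higher in the WT response (median 1.36). The part of skeletal muscle in the differences above was not tested. A measure of RNA integrity, the signal of control probe sets at the 3′ end minus that at the 5′ end, was -0.021 ± 0.036 in treated KO and -0.0011 ± 0.0307 in treated WT mice (SD, n = 10 each), and 0.014 ± 0.031 in untreated KO and 0.040 ± 0.040 in untreated WT mice (SD, n = 6 each). This 3′ minus 5′ difference was thus lower with treatment in both genotypes. A lower value of it does not mean poorer RNA. Its part in the differences above was not tested beyond its use as a covariate.

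Whether the targets move together from mouse to mouse was read within groups. Values were centred on their group mean over the 32 arrays, and 36 pairs of the 9 targets were compared. After adjustment over the 36 pairs 0 passed a permutation test with 100000 shuffles within groups. At an unadjusted p under 0.05 there were 5 by Pearson's r and 3 by Spearman's rho. Of the 36 values of r, 19 lay above 0, with a median of 0.078. The pair with the highest rho and the lowest permutation p was Ccng1 and Trp53inp1, with r = 0.608 (permutation p = 0.00205, adjusted 0.0738) and rho = 0.536 (permutation p = 0.00407, adjusted 0.147), and r = 0.559 without the 2 arrays farthest in Ccng1. Within single groups r was 0.586 in treated KO and 0.701 in treated WT, 0.591 in untreated KO and 0.454 in untreated WT mice. Treated KO arrays 2 and 4 were the lowest of their group for both genes. Pmaip1 and Trp53inp1 had r = 0.456 and rho = 0.434 (adjusted permutation p = 0.218 and 0.363). Phlda3 and Perp had the highest r, 0.643, but rho = 0.201, and r fell to 0.149 without the 2 arrays farthest in Phlda3, so that this relation rests on those arrays. The median r of a target with the other 8 lay between -0.183 (Phlda3) and 0.305 (Bbc3), and was 0.111 for Cdkn1a, whose median r with all genes was 0.001.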

How the data were processed

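RNA of 32 distal colon samples was measured on Affymetrix arrays. The authors deposited log2 signals of 45101 probe sets, 64 of them controls, in a single table. The software that summarised the probes is not given in the sources used here. Each array had been scaled to nearly the same 2% trimmed mean on the linear scale (150.9 to 151.3), and signals under 10 stood at 10, a floor of 3.322 on the log2 scale, which held 18.7% to 23.9% of an array's probe sets. A floor and a saturating top make differences of dim and bright genes too small.

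The log2 values were quantile normalized. Of the probe sets, 34945 had 1 gene symbol in the platform annotation, 932 several and 9224 none, and each gene was read from its single-symbol probe set with the highest mean (18193 genes). The means of the 4 groups were estimated over the 32 arrays by a linear model with limma 3.58.1 in R 4.3.3 (28 residual and 1.10 prior degrees of freedom), two-sided, with Benjamini-Hochberg adjustment over all genes. Groups came from the sample labels, which call the samples biological repeats and give no batch, date or sex. Precision is limited by the number of arrays.

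The targets, the lists and the markers were chosen with earlier results of these data known. All measured targets are named in each comparison. Of the other lists of the p53 network and of ATF4 and glucocorticoid genes, up to 4 called genes with the largest differences and the brightest gene not called are named where the list had calls. Marker lists are given by counts and examples, and other genes named were chosen after their values were seen. Pairs of targets were compared with Python 3.11.15, numpy 2.4.6 and scipy 1.17.1. Alternatives were median centring, the values as deposited, a filter at the 40th percentile of mean signal, other uses of the probe sets, the compared groups alone, array weights, a block for the repeat number, a prior that was trended and robust, the squamous epithelium mean or an RNA integrity measure as covariate, and each array left out. Leaving out treated WT arrays 1 and 2 together, or treated KO arrays 3, 5 and 7 together, was chosen after seeing the data. The fit was tested on simulated data.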

Additional observations from a re-analysis of the deposited data

Results flagged for a closer look

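For each target and group, the highest and the lowest array were set against the others by Dixon's test, in 36 sets of values, and 2 sets held an array that stood apart. Chance alone marks about 1 in 20 such sets. Perp was at 12.98 on treated WT array 1, while the other 9 treated WT arrays lay between 10.76 and 11.32. Phlda3 was at 8.97 on the same array, while the other 9 lay between 7.16 and 8.00. That array also had the highest mean of the squamous epithelium genes, 11.71, and the part of this in both values was not tested.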

How the results depend on the processing

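The number of arrays, the spread between them and the floor of the scale limit what these data resolve, most of all for the dim targets Bbc3 and Sesn2. The fall of Trp53inp1 in the KO response was the one call among the targets that held in every setting run. The number of targets called in the KO response was 2 with median centring, with probe sets averaged, with the compared groups alone and without treated WT arrays 1 and 2, and 1 or 2 without a single array. Between treated KO and treated WT mice it was 0 with median centring, the values as deposited, probe sets averaged, the compared groups alone, either covariate and without treated KO arrays 3, 5 and 7, and 0 or 1 without a single array. In the WT response it was 1 with array weights. The causes were not tested.

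Of all genes, the WT response called 213 with median centring, 891 with the compared groups alone, 1459 with array weights, 75 with the RNA integrity covariate, 176 with the squamous covariate, and 165 to 447 without a single array, against 335. The KO response called 1919 with the compared groups alone and 2802 to 4164 without a single array, against 3406. Treated KO against treated WT called 1338 with the compared groups alone and 1774 to 3026 without a single array, against 2331. Untreated KO against untreated WT called 43 with array weights and 15 to 29 without a single array, against 21. The difference of responses called 20 with median centring, 6 with the values as deposited, 18 with probe sets averaged, 257 with array weights, 3 without treated WT arrays 1 and 2 or without treated KO arrays 3, 5 and 7, and 3 to 164 without a single array, against 10. No pair of targets was called with the values as deposited, as in the values reported.

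No pairing of the mice by repeat number was seen. Between groups, same-numbered arrays correlated over 0.1 in 1 of 10 pairs of treated KO and treated WT, and in 0 or 1 of 6 pairs elsewhere. So few pairs cannot exclude a pairing. With the repeat number as a block no call among the targets changed, the Mdm2 KO response turned to 0.070, and the difference of responses called 3 genes.

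Most differences whose sign turned were not called. The exceptions were Mdm4 in the KO response (-0.27) and between treated KO and treated WT (-0.33) and Mcl1 in the KO response (0.23), which turned with probe sets averaged, and Ccng1 between treated KO and treated WT (-0.20), which turned on its other probe sets. Of the values after turning, 1 was called, that of a further Ccng1 probe set in the KO response (0.25, adjusted p = 0.0204, limma). With median centring they were Mdm2 (0.064) and Ccng1 (0.12) in the KO response, Cdkn1a (0.11), Mdm2 (0.0081) and Perp (0.088) between treated KO and treated WT, Mdm2 (-0.0042) between untreated groups, and Mdm2 (0.012), Sesn2 (0.019) and Perp (0.042) in the difference of responses. With the values as deposited they were Ccng1 (0.028) in the KO response and Cdkn1a (0.022) and Perp (0.0040) between treated KO and treated WT. With probe sets averaged they were Mdm2 (0.17), Ccng1 (0.12), Mdm4 (0.12) and Mcl1 (-0.15) in the KO response, Mdm2 (-0.058) in the WT response, Cdkn1a (0.092), Mdm2 (0.16) and Mdm4 (0.063) between treated KO and treated WT, Cdkn1a (0.079), Mdm2 (-0.070) and Ccng1 (0.0090) between untreated groups, and Mdm2 (0.23) and Sesn2 (0.060) in the difference of responses. With array weights they were Perp (0.015) between treated KO and treated WT and Cdkn1a (-0.021) in the difference of responses. With the RNA integrity covariate they were Mdm2 (0.021) in the KO response and Cdkn1a (0.030) and Bbc3 (0.035) between treated KO and treated WT.

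With the squamous covariate they were Bbc3 (0.033), Phlda3 (0.11) and Perp (0.076) between treated KO and treated WT, Perp (-0.016) between untreated groups, and Cdkn1a (-0.011), Sesn2 (0.055), Phlda3 (0.035) and Perp (0.091) in the difference of responses. Without treated WT arrays 1 and 2 they were Cdkn1a (0.0023), Bbc3 (0.064), Phlda3 (0.075) and Perp (0.14) between treated KO and treated WT and Sesn2 (0.093) and Perp (0.12) in the difference of responses. Without treated KO arrays 3, 5 and 7 they were Mdm2 (0.065) in the KO response, Cdkn1a (0.058) and Mdm2 (0.034) between treated KO and treated WT, and Mdm2 (0.011) in the difference of responses. The dimmer Cdkn1a probe set gave 0.21 between treated KO and treated WT, 0.23 between untreated groups and -0.025 in the difference of responses. The other 2 Ccng1 probe sets gave 0.13 and 0.25 in the KO response, 0.066 and 0.041 between treated KO and treated WT, 0.038 and 0.024 between untreated groups, and 0.028 and 0.017 in the difference of responses. The other 2 Mdm2 probe sets gave 0.17 and 0.36 in the KO response, -0.24 for the dimmest in the WT response, 0.14 and 0.38 between treated KO and treated WT, -0.016 and -0.22 between untreated groups, and 0.16 and 0.60 in the difference of responses. The other Sesn2 probe set gave 0.12 in the difference of responses.

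Without a single array, signs turned within -0.047 to 0.021 (Ccng1) and -0.11 to 0.11 (Mdm2) in the KO response. Between treated KO and treated WT they turned within -0.15 to 0.050 (Phlda3), -0.15 to 0.093 (Perp), -0.083 to 0.033 (Cdkn1a), -0.13 to 0.090 (Bbc3) and -0.12 to 0.010 (Mdm2). Between untreated groups they turned within -0.10 to 0.12 (Mdm2) and -0.015 to 0.032 (Perp), and in the difference of responses within -0.12 to 0.077 (Sesn2), -0.17 to 0.079 (Perp), -0.0073 to 0.11 (Cdkn1a) and -0.17 to 0.056 (Mdm2).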

Other observations

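Over the 32 arrays, without regard to group, the genes whose signal followed Cdkn1a most closely were Tns4 (Pearson's r = 0.767), Hdac11 (0.757), Smad7 (0.745), Pkn2 (0.734) and Ano1 (0.722). They were picked from 18193 genes for this likeness, so the values are a description and carry no test. With values centred on their group mean, r with Cdkn1a was 0.735 for Tns4, 0.705 for Hdac11, 0.758 for Smad7, 0.668 for Pkn2 and 0.677 for Ano1, so the likeness was present inside groups too. None of the other measured targets was among them.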
